A study of Mus musculus with 2 samples.

Results

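The 8 genes described here form a signalling module of T cell development: the cytokine receptor chains Il7r, Il2ra, Il2rb, Il2rg and Il4ra, and the feedback inhibitors Socs1, Socs3 and Cish. They were chosen by name out of 27933 gene symbols, and all 8 were present in the counts of both libraries. RNA of single mouse thymocytes was counted in 1 wild type library and in 1 library made from thymocytes homozygous for mutations of GATA sites 1 and 2 in NMe, a distant enhancer of the gene Myc. Both suspensions were loaded at 5000 cells on the 10x Chromium system. The labels name no strain, age or number of animals for either library, and they are called wild type and mutant below. With 1 library per genotype no test between genotypes exists, so no p-value is given. All intervals are 95% intervals for counting error alone, so what is compared are 2 libraries rather than 2 genotypes.

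Cytokines of the interleukin 2 family signal through receptors that pair a private chain with the common gamma chain, which Il2rg encodes. Il7r encodes the alpha chain that binds IL-7, a survival and growth signal of early and of mature T cells, and thymocytes are known to silence it while they carry both CD4 and CD8. Il2ra and Il2rb encode the alpha and beta chains for IL-2, of which the alpha chain, CD25, is a classical marker of early CD4-CD8- cells and of regulatory T cells. Il4ra encodes the alpha chain for IL-4. Receptor binding activates JAK kinases and STAT factors, and STAT factors switch on SOCS proteins and CISH, which bind the receptors or kinases and damp the signal.

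In the GENCODE annotation of build GRCm38, Il2ra lies at chr2:11642807-11693193, Il7r at chr15:9505788-9530176 and Il2rb on the same chromosome at chr15:78479256-78495271. Il2rg lies at chrX:101264378-101268255 and Il4ra at chr7:125552120-125579474. Of the inhibitors, Socs1 lies at chr16:10782240-10785536, Socs3 at chr11:117966079-117970047 and Cish at chr9:107296026-107302784.

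Cells were placed in stages by the unique molecular identifiers (UMIs) of marker genes, none of which is a member. The stages were early CD4-CD8- cells (DN-like, with 42 wild type and 204 mutant cells), cycling cells (591 and 297), CD4+CD8+ cells that were not cycling (DP-like, 289 and 460), cells with genes of T cell receptor signalling (post-selection-like, 175 and 253) and mature single-positive cells (SP-like, 203 and 415). The names stand for marker RNA, with the suffix dropped below. Of the DP cells, 16 and 14 lay near a limit of the stage rule, and of the post-selection cells 26 and 45. Of the 10 genes that led the DP stage by fold none was a DP marker, and none marked another stage, whereas the summed DP markers were at 7425 and 9460 UMIs per 1000000 UMIs (CPM) in DP cells and at 1241 and 996 in SP cells. Median depth was 2150 and 1834 UMIs per cell in DP cells, 3021 and 2967 in SP cells, 4164 and 3031 in DN cells and 5888 and 6031 in cycling cells. The libraries shared 1 cell barcode. When all cells were clustered without the members, DP cells of the libraries lay mostly apart: cluster 0 held 223 wild type and 13 mutant DP cells, and cluster 13 held 18 and 406. In cycling cells, 118 mutant cells and 0 wild type cells lay in cluster 2, while 11 and 213 lay in cluster 3. Levels are summed UMIs of a gene per 1000000 UMIs of the stage.

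**Figure D1:**
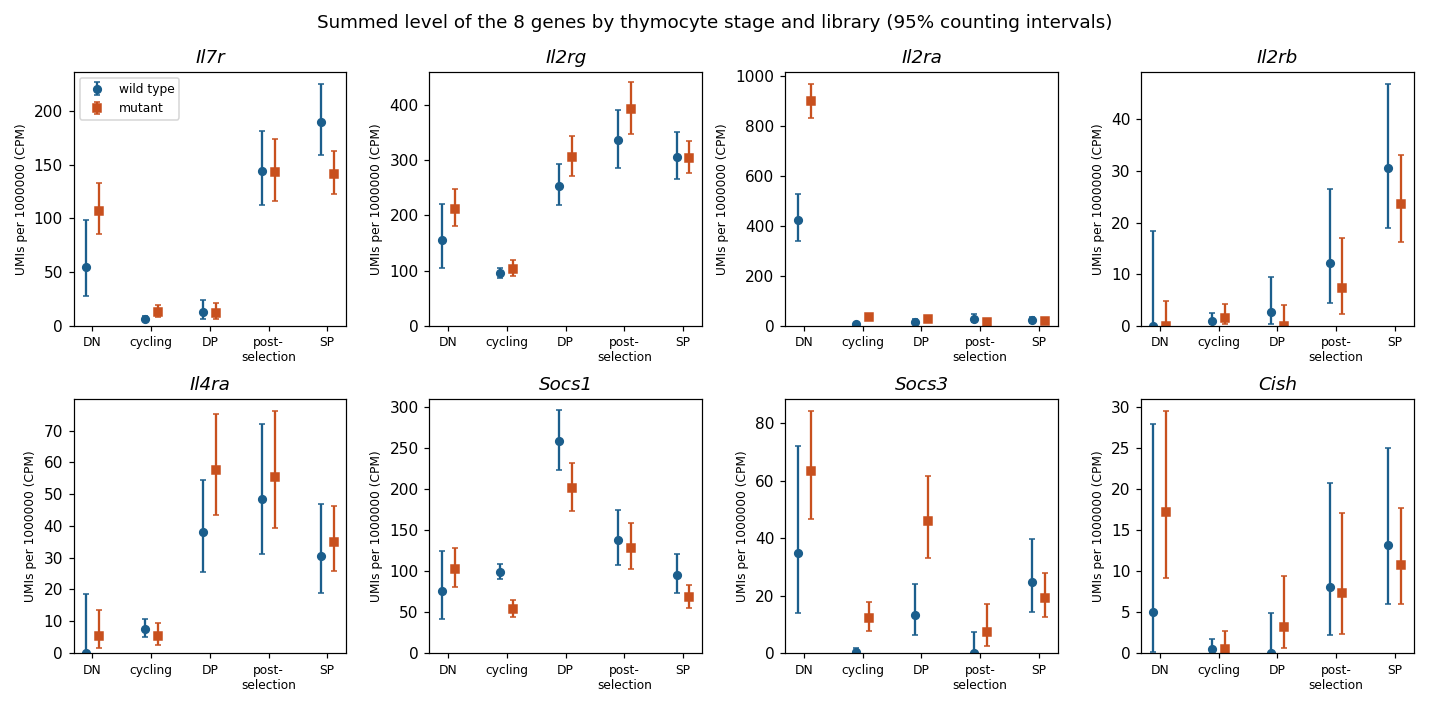
Summed level of each of the 8 genes in UMIs per 1000000 UMIs (CPM, vertical axis, from 0, with its own scale in each panel) in 5 thymocyte stages (horizontal axis) for wild type (circles) and mutant (squares), with 95% Poisson intervals. Il7r is near the bottom of its panel in cycling and DP cells, where Socs1 is highest in DP cells of both libraries.

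Il7r, the IL-7 receptor alpha chain, had a low level in the middle of the sequence of stages and a high one at its end. In wild type it was at 55.0 CPM in DN cells (27.5 to 98.4, from 11 UMIs), 6.59 in cycling cells (28 UMIs), 13.1 in DP cells (6.28 to 24.1, from 10 UMIs), 144 in post-selection cells (112 to 181) and 190 in SP cells (159 to 225, from 130 UMIs). In mutant it was at 107 CPM in DN cells (85.2 to 133, from 81 UMIs), 13.1 in cycling cells (27 UMIs), 11.7 in DP cells (5.86 to 21.0, from 11 UMIs), 143 in post-selection cells (116 to 174) and 141 in SP cells (122 to 162, from 198 UMIs). The intervals of DP and cycling cells overlapped each other, and they overlapped no interval of the other stages in either library. Post-selection and SP cells did not differ beyond their intervals. For DP over SP cells the wild type log2 ratio was -3.86 (-4.95 to -2.93) and the mutant one -3.59 (-4.62 to -2.72), and those of DP over DN cells were -2.07 (-3.46 to -0.70) and -3.19 (-4.25 to -2.28). With all cells thinned to 1500 UMIs, the DP over SP ratio in mutant became -4.76, from few UMIs, and it became -5.47 with clusters in place of the marker rule.

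The few Il7r UMIs of DP cells were spread over single cells. Of 289 wild type DP cells 9 had an Il7r UMI, 3.11% (1.43 to 5.83), and of 460 mutant DP cells 9, 1.96% (0.898 to 3.68). B and antigen-presenting cells had it in 2 of 15 and 6 of 64 cells, at median depths of 4408 and 2676 UMIs. The DP share was no higher than theirs. These cells also held SP markers, at 365 and 1135 CPM beside 351 and 480 in DP cells, and are no clean control. Whether the DP UMIs are expression was not tested. The B and antigen-presenting cells are few, and at equal depth 0 of 15 and 2 of 62 had an Il7r UMI. The part of free RNA was not tested. At an equal depth of 1500 UMIs per cell, 1.04% of wild type and 0.743% of mutant DP cells had an Il7r UMI, against 20.7% and 14.9% of SP cells and 12% and 13.1% of post-selection cells. In DN cells the thinned shares were 11.9% (3.98 to 25.6) and 18.0% (12.9 to 24.0). All 10 wild type DP UMIs of Il7r came from the 190 DP cells with at least 1 UMI of a post-selection or SP marker. The other 99 DP cells had 0 Il7r UMIs, with an upper limit of 15.9 CPM. The interval of the log2 ratio between these groups began at -0.04, so it included 0. In mutant those groups had 9 UMIs in 337 cells and 2 UMIs in 123 cells.

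**Figure D2:**
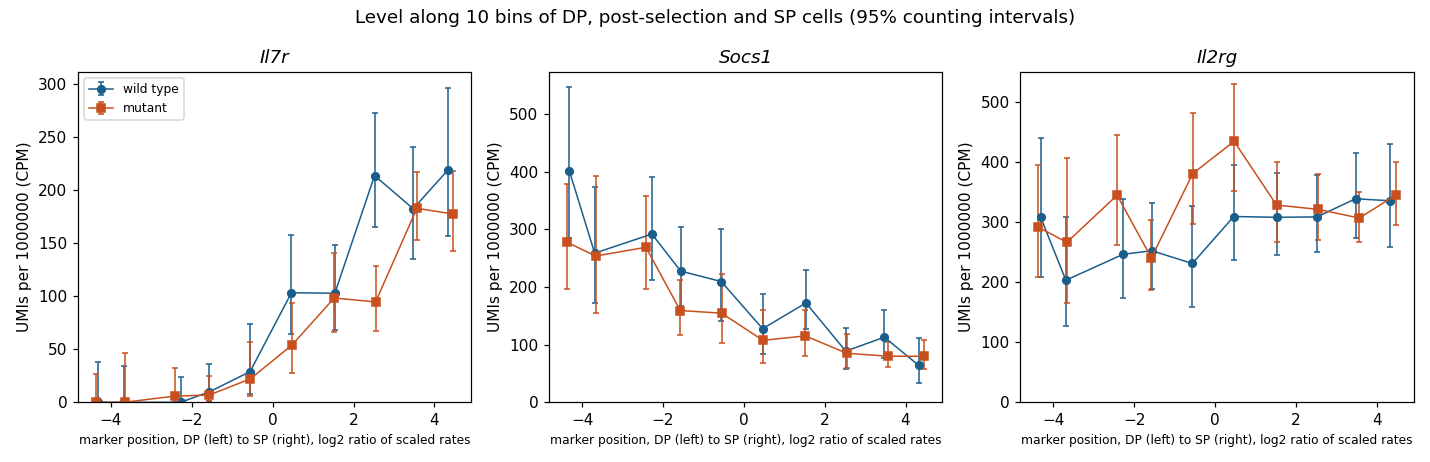
Summed level in CPM (vertical axis, from 0) of Il7r, Socs1 and Il2rg in 10 bins of DP, post-selection and SP cells, placed at the median of the log2 ratio of post-selection and SP marker rates to DP marker rates (horizontal axis), for wild type (circles) and mutant (squares) with 95% Poisson intervals. Il7r starts at 0 and ends at 218 and 177 CPM, while Socs1 starts at 400 and 278 CPM and ends at 63.9 and 79.9.

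Il7r and Socs1 ran in opposite directions along a position set by DP markers at one end and post-selection and SP markers at the other. No Il7r UMI was found in the 3 wild type bins nearest the DP end (45, 48 and 63 cells) or in the first 2 mutant bins (80 and 39 cells). The upper limits there were 37.9, 34.1 and 23.9 CPM in wild type and 26.3 and 46.8 in mutant. Il7r was at 28.9 CPM (7.87 to 74.0) in the fifth wild type bin and at 103 (63.8 to 158) in the sixth, and at 22.1 (6.02 to 56.5) and 53.8 (27.8 to 93.9) in the same bins of mutant. The last wild type bin reached 218 CPM (157 to 296) and the last mutant bin 177 (143 to 218). Socs1, a feedback inhibitor of JAK kinases, was at 400 CPM (285 to 547) in the first wild type bin and at 63.9 (33.0 to 112) in the last. In mutant it was at 278 (197 to 379) and 79.9 (57.3 to 108). Il2rg showed no such course: in wild type it was at 308 CPM (208 to 440) in the first bin and at 336 (258 to 429) in the last, and in mutant at 292 (209 to 396) and 345 (296 to 399). Median depth per bin ran from 2011 to 3173 UMIs in wild type and from 1650 to 2941 in mutant, and its part in these courses was not tested.

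To place the members among all genes, a gene was called measured where 1 of the compared stages reached 20 CPM and the pair held 20 UMIs or more, and higher or lower where the levels, with 5 CPM added to each, differed by 2-fold or more. Of 7 members measured between DP and SP cells of wild type, 1 was higher (Socs1) and 2 were lower (Il7r, Il2rb), where 16.7% of 5752 measured genes were higher and 5.81% lower. In mutant 2 of 7 were higher (Socs1, Socs3) and 2 lower (Il7r, Il2rb), where 18.4% of 6057 genes were higher and 5.96% lower. The median gene had a DP over SP log2 ratio of 0.38 in wild type and 0.49 in mutant, so a member near 0 lay below most genes. Il7r was at percentile 0.382 of the measured genes in wild type and 0.495 in mutant. Socs1 was at percentile 92.8 and 93.0. The median of the 7 measured members was at -0.47 and 0.43 on that scale. Between DP and DN cells 2 of 5 measured members were higher in wild type (Il4ra, Socs1), as were 19.1% of all measured genes, and 2 were lower (Il2ra, Il7r), as were 4.97%. In mutant 1 of 6 was higher (Il4ra), beside 9.53% of genes, and 2 were lower (Il2ra, Il7r), beside 7.62%.

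**Figure D3:**
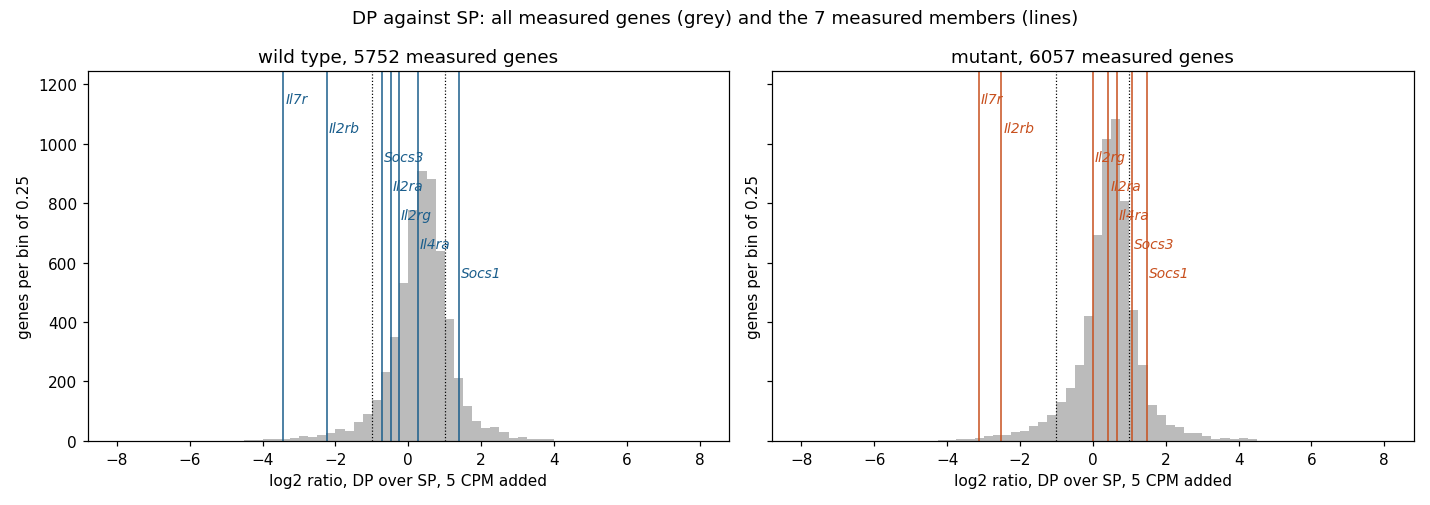
Number of measured genes (vertical axis) by the log2 ratio of DP over SP cells with 5 CPM added (horizontal axis) in wild type (left) and mutant (right), with solid lines at the 7 measured members and dotted lines at the 2-fold limits. Il7r and Il2rb lie far to the left of most genes in both panels, and Socs3 lies left of the median gene in wild type and right of it in mutant.

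Il2rg, the common gamma chain, was present in all 5 stages and lowest in cycling cells. It was at 155 CPM in wild type DN cells (105 to 220), 95.3 in cycling (86.2 to 105), 254 in DP (220 to 292), 336 in post-selection (287 to 391) and 306 in SP cells (266 to 351). In mutant the levels were 212 (180 to 247), 103 (90.1 to 118), 306 (272 to 344), 393 (347 to 442) and 305 (277 to 335). The cycling interval lay below all others in both libraries. Cycling over DP cells gave log2 ratios of -1.41 (-1.67 to -1.16) and -1.57 (-1.83 to -1.31). All 3 members measured in wild type (Il2rg, Il4ra and Socs1) were called lower in cycling than in DP cells. So were 4 of the 5 measured in mutant (with Socs3 also), where 11.7% and 13.4% of all measured genes were. In DP cells the level of the shared chain had an interval that met that of SP cells, while Il7r was low. The wild type Il2rg log2 ratio of DP over SP was -0.27 (-0.56 to 0.02), and 0.01 (-0.21 to 0.23) in the mutant library. Of DP cells with an Il7r UMI, 7 of 9 wild type and 3 of 9 mutant cells also had an Il2rg UMI, beside 47.9% and 45.2% of the other DP cells. The cells with Il7r were deeper, with medians of 5104 and 2618 UMIs against 2141 and 1824. At 1500 UMIs per cell, 36.3% and 39.9% of DP cells, 35.5% and 38.1% of SP cells and 14.2% and 16.1% of cycling cells had an Il2rg UMI.

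Il2ra, the IL-2 receptor alpha chain, marked DN cells. It was at 425 CPM in wild type DN cells (339 to 526, from 85 UMIs) and at 898 in mutant DN cells (831 to 968, from 678 UMIs). In the other 4 stages it was between 7.06 and 28.3 CPM in wild type and between 14.6 and 35.8 in mutant. Of DN cells 34 of 42 and 163 of 204 had an Il2ra UMI, 81.0% (65.9 to 91.4) and 79.9% (73.7 to 85.2). At 1500 UMIs per cell the shares were 57.1% (41.0 to 72.3) and 69.5% (62.6 to 75.8), which overlapped. In the same DN cells, Il2rg was found in 18 of the 34 wild type and 85 of the 163 mutant cells with an Il2ra UMI, and in 25% and 26.8% of those without one, which were shallower. Il2rb was found in none of them. All 10 wild type DN cells and 61 of 66 mutant DN cells with an Il7r UMI also had one of Il2ra. Outside DN cells few cells carried most of the UMIs in wild type: 1 cell held 54.5% of the 11 UMIs in DP, 64.3% of the 14 UMIs in post-selection and 46.7% of the 15 UMIs in SP cells.

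Il2rb, the beta chain shared by the receptors for IL-2 and IL-15, appeared late. No Il2rb UMI was found in DN cells, where 3 UMIs would be 15 CPM in wild type and 3.97 in mutant. It was at 0.941 and 1.45 CPM in cycling cells, 2.62 and 0 in DP cells, 12.1 (4.45 to 26.4) and 7.30 (2.37 to 17.0) in post-selection cells, and 30.6 (19.0 to 46.8, from 21 UMIs) and 23.6 (16.2 to 33.1, from 33 UMIs) in SP cells. SP cells were 2.04-fold higher than DN cells in wild type and 5.93-fold in mutant, counted against 3 UMIs in the DN cells of each library. The intervals of the SP over DN log2 ratio began at 0.60 and 2.19. Between DP and SP cells the wild type log2 ratio was -3.55 (-6.69 to -1.52), from 2 and 21 UMIs. Mutant SP cells were 7.36-fold higher than mutant DP cells counted against 3 UMIs. The interval of the mutant DP over SP log2 ratio ended at -2.50.

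**Figure D4:**
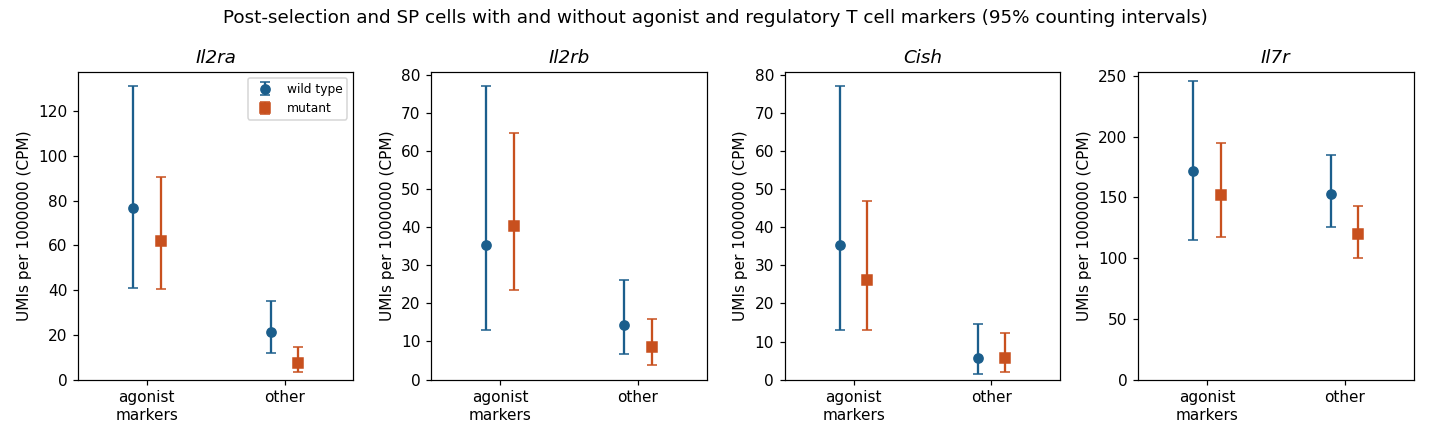
Summed level in CPM (vertical axis, from 0) of Il2ra, Il2rb, Cish and Il7r in post-selection and SP cells with at least 3 UMIs of agonist and regulatory T cell markers and in those with none (horizontal axis), for wild type (circles) and mutant (squares) with 95% Poisson intervals. Il2ra, Il2rb and Cish have their higher points in the marked cells of both libraries, and the points of Il7r lie close together.

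Among post-selection and SP cells, Il2ra, Il2rb and Cish were highest where markers of agonist-selected and regulatory T cells were found. Cells with at least 3 UMIs of Foxp3, Tnfrsf4, Tnfrsf9, Tnfrsf18, Ctla4 and Izumo1r numbered 48 in wild type and 109 in mutant, and cells with none 230 and 377. Il2ra was at 76.8 CPM in the marked and 21.4 in the other wild type cells, a log2 ratio of 1.84 (0.65 to 3.01), and in mutant at 61.8 and 7.49, with a ratio of 3.04 (1.86 to 4.40). Il2rb was at 35.4 and 14.3 CPM in wild type, 1.31 (-0.43 to 2.91), and at 40.4 and 8.43 in mutant, 2.26 (1.02 to 3.61). Cish was found in 6 UMIs of the marked and 4 of the other wild type cells, 2.63 (0.56 to 4.90), and in 11 and 6 UMIs in mutant, 2.22 (0.66 to 3.94). The marked cells were deeper, with medians of 2974 and 3528 UMIs against 2665 and 2407, and the part of depth was not tested. Il7r did not differ beyond its interval, at 0.16 (-0.48 to 0.77) and 0.34 (-0.11 to 0.79). The mutant marked cells were lower in Il2rg, at -0.44 (-0.76 to -0.13), in Socs1, at -0.69 (-1.39 to -0.03), and in Socs3, at -2.12 (-5.25 to -0.09) from 2 and 22 UMIs. The wild type values of these 3 genes were -0.06 (-0.52 to 0.37), 0.14 (-0.65 to 0.87) and 0.05 (-2.42 to 1.94). The Il2ra UMIs of wild type came from 5 marked and 4 other cells.

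Il4ra, the IL-4 receptor alpha chain, separated early from later cells. It was at 0 CPM in wild type DN cells, where 3 UMIs would be 15 CPM, and at 5.30 in mutant DN cells (1.44 to 13.6, from 4 UMIs). Cycling cells had 7.53 (5.15 to 10.6) and 5.32 (2.66 to 9.52) CPM. DP cells had 38.0 (25.4 to 54.5) and 57.6 (43.3 to 75.2), post-selection cells 48.5 (31.1 to 72.2) and 55.4 (39.2 to 76.1), and SP cells 30.6 (19.0 to 46.8) and 35.0 (25.9 to 46.2). The intervals of the 3 later stages overlapped one another and lay above those of cycling cells in both libraries, while the DP over SP log2 ratio was 0.31 (-0.55 to 1.19) for wild type but 0.72 (0.14 to 1.31) for mutant. With cells of at least 1781 UMIs only, the mutant value was -0.15. The DP over DN log2 ratio in mutant was 3.44 (2.00 to 5.37), at percentile 99.2 of measured genes. Cycling over DP gave -2.33 (-3.11 to -1.56) and -3.44 (-4.52 to -2.49). Il4ra and Il7r thus parted in DP cells, where Il4ra was at its higher level and Il7r at its low one.

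Socs1 had its highest level in DP cells of both libraries. In wild type it was at 75.0 CPM in DN cells (42.0 to 124, from 15 UMIs), 99.0 in cycling (89.8 to 109), 258 in DP (223 to 297, from 197 UMIs), 138 in post-selection (107 to 174) and 94.9 in SP cells (73.2 to 121). In mutant it was at 102 (80.5 to 127), 53.7 (44.2 to 64.6), 201 (173 to 231, from 188 UMIs), 128 (103 to 158) and 67.8 (54.9 to 82.9). The DP interval overlapped none of the others, and post-selection cells came next. The DP over SP log2 ratio was 1.44 (1.03 to 1.87) for wild type, and for mutant 1.57 (1.2 to 1.94). At 1500 UMIs per cell, 30.1% (24.9 to 35.8) and 24.0% (19.9 to 28.5) of DP cells had a Socs1 UMI, against 11.3% and 10.4% of SP cells. The 99 and 123 DP cells without a post-selection or SP marker UMI had 298 (232 to 377) and 231 (173 to 302) CPM. Immediate early and dissociation genes, summed over 14 genes, were at 1663 and 1915 CPM in DP cells and at 1257 and 1447 in SP cells. Of 8 measured in wild type, 1 was called higher in DP cells (Btg2) and 2 lower. Of 9 measured in mutant, 1 was higher (Btg2) and 5 lower. Among all measured genes 16.7% and 18.4% were higher and 5.81% and 5.96% lower. The list medians with 5 CPM added were -0.44 and -1.06, beside 0.38 and 0.49 for all genes. Summed interferon-inducible genes were lower in DP cells, with 321 and 629 CPM against 1308 and 1414 in SP cells. The part of either list in the Socs1 levels was not tested.

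In cycling cells Socs1 followed the coreceptors. Cycling cells with at least 10 UMIs of Cd4, Cd8a and Cd8b1 per 10000 numbered 438 in wild type and 129 in mutant and had 129 (116 to 144) and 80.7 (61.4 to 104) CPM of Socs1. Those with fewer numbered 153 and 168 and had 48.8 (38.6 to 61.0) and 38.9 (29.1 to 51.0). Low over high coreceptor cells gave log2 ratios of -1.40 (-1.78 to -1.05) and -1.05 (-1.62 to -0.49). Il2ra went the opposite way in the same split, at 2.73 (1.40 to 4.31) and 2.63 (1.44 to 4.13).

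Socs3, which inhibits JAK kinases at receptors that use the chain gp130, had point levels that ordered the stages differently in the libraries. In wild type it was at 35.0 CPM in DN cells (14.1 to 72.1, from 7 UMIs), 0.471 in cycling (2 UMIs), 13.1 in DP (6.28 to 24.1, from 10 UMIs), 0 in post-selection (3 UMIs would be 6.07 CPM) and 24.8 in SP cells (14.5 to 39.7, from 17 UMIs). In mutant it was at 63.6 in DN cells (46.9 to 84.3, from 48 UMIs), 12.1 in cycling (7.82 to 17.8, from 25 UMIs), 45.9 in DP (33.2 to 61.8, from 43 UMIs), 7.30 in post-selection (5 UMIs) and 19.3 in SP cells (12.7 to 28.0, from 27 UMIs). DN cells had the highest point in both libraries, with an interval that met those of DP and SP cells in wild type and that of DP cells in mutant. The DP over SP log2 ratio was -0.92 (-2.21 to 0.29) in wild type, an interval that included 0, and 1.25 (0.52 to 2.00) in mutant. The difference between these ratios was not tested. Socs1 and Socs3 were thus not alike in course, since Socs1 led in DP cells of both libraries. Of mutant DP cells with a Socs1 UMI 11.0% also had a Socs3 UMI, against 7.94% of those without, and in wild type the shares were 3.13% and 3.11%.

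Cish was sparse, with 17 UMIs in wild type and 41 in mutant over all cells. Mutant DN cells held 13 of them, at 17.2 CPM (9.16 to 29.4), and SP cells held 9 in wild type and 15 in mutant, at 13.1 (6.01 to 24.9) and 10.7 (5.99 to 17.7) CPM. Wild type DP cells had 0 UMIs, where 3 UMIs would be 3.93 CPM, and mutant DP cells had 3. In wild type, SP cells were 3.34-fold higher than DP cells counted against 3 UMIs. The interval of the wild type DP over SP log2 ratio ended at -1.14. In mutant, DP over DN cells gave -2.43 (-4.88 to -0.56), from 3 and 13 UMIs. CISH is induced by STAT5, the factor that IL-2 and IL-7 receptors activate. Wild type DN cells, where Il2ra was at 425 CPM, had 1 Cish UMI.

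Because the feedback genes are known STAT targets, the promoter windows of the members were searched for TTCNNNGAA, the palindromic letters that STAT dimers read, which are the same on both strands. RefSeq windows of 250 bases before to 50 after the gene start (build GRCm38.p6) were found for 7 of the 8 members, not for Il2rb, and 3 of the 7 held the letters, as did 8.30% of all 32851 windows. The stretches around them are shown in lower case with the matched letters in capitals, 5′ to 3′ on the strand of the gene.
Cish: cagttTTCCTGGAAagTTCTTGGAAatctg
Socs3: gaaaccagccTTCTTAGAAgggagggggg
Il7r: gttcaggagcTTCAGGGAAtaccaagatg
The Cish stretch lies at chr9:107296654-107296683 on the + strand, in an annotated untranslated exon, and holds 2 matches that span positions 1 to 20 counted from the RefSeq start. The Socs3 stretch lies at chr11:117969502-117969530 and the Il7r stretch at chr15:9530000-9530028, both on the - strand and upstream of the RefSeq start. In the GENCODE annotation both lie within the bounds of their gene but in no exon of it. Their matches begin at positions -154 and -142 relative to the RefSeq start. The windows of Socs1, Il2ra, Il2rg and Il4ra did not hold these letters. A match is a description of letters and not a bound site, and the 3 genes with a match had different courses over the stages.

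Within a stage, Il2ra and Socs3 were the members called different between mutant and wild type cells. Of 40 pairs of a member and a stage 25 were measured, of which 3 were called higher in mutant and 0 lower. The number called higher was 6 with markers counted on cells thinned to 1500 UMIs, 6 without the cell that held most UMIs of the gene and 5 without cells near a limit of the stage rule. No wild type stage could be given a spread beyond counting error. Beside these counts, the share of all measured genes called higher in mutant was 11.6% in DN, 1.5% in cycling, 2.94% in DP, 2.05% in post-selection and 0.953% in SP cells, and the share called lower was 1.26%, 0.499%, 1.23%, 0.893% and 0.564%. The median gene lay at 0.25 in DN, 0.18 in cycling and 0.17 in DP cells.

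**Figure D5:**
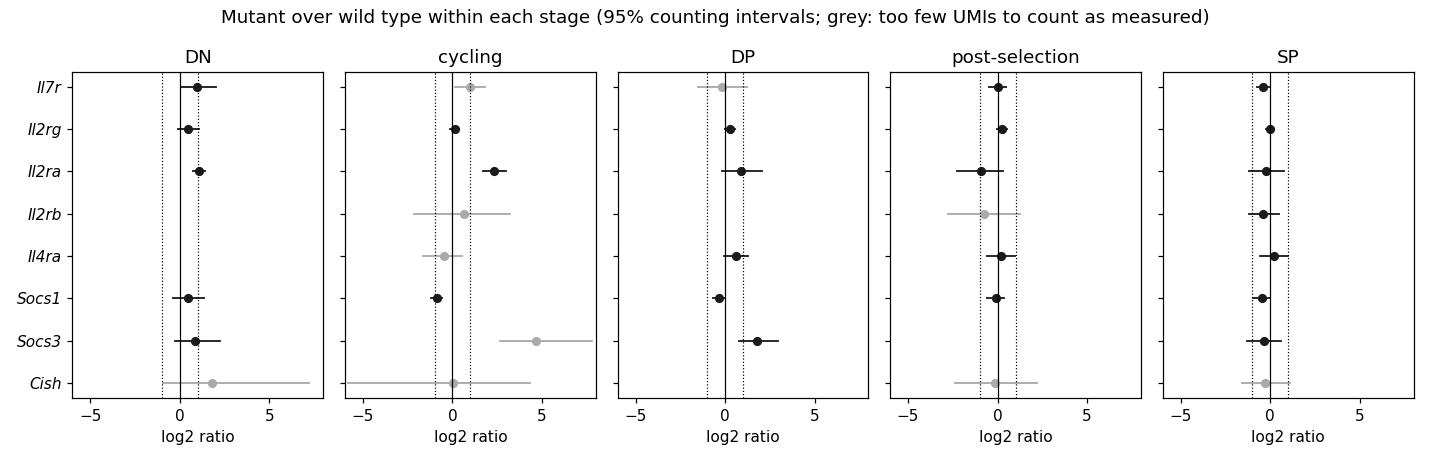
Log2 ratio of mutant over wild type (horizontal axis) for each member (rows) in 5 stages (panels), with points at the ratio, bars for the 95% conditional interval, dotted lines at 2-fold and grey for pairs with too few UMIs to be measured. Members with 0 UMIs in either library are not drawn, and the black points past 2-fold are Il2ra in DN and cycling cells and Socs3 in DP cells.

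Il2ra was higher in mutant DN cells by a log2 ratio of 1.08 (0.75 to 1.42), at percentile 90.6 of measured genes. It was under 2-fold in 3 of 11 settings, at 0.90 with cells thinned to 1500 UMIs, 0.91 with markers counted on thinned cells and 0.83 with mitochondrial and ribosomal protein genes left out of the total. The DN markers themselves summed to 2005 CPM in wild type DN cells and to 3101 in those of the mutant. Ptcra, the pre-T cell receptor chain, had 190 and 356 CPM there. Markers of innate-like cells summed to 185 and 498 CPM, and the part of these values in the ratio was not tested. Cycling cells of wild type had 7.06 CPM of Il2ra (4.76 to 10.1, from 30 UMIs), and those of mutant 35.8 (28.1 to 44.9, from 74 UMIs). Their log2 ratio was 2.34 (1.71 to 3.01), at percentile 99.6. Summed DN markers were at 137 and 371 CPM in the same cells. Within cycling cells of low coreceptor counts the Il2ra ratio was 1.76 (1.07 to 2.50), from 24 and 68 UMIs, and in those of high counts 1.86 (-0.04 to 3.76), from 6 and 6 UMIs. DN cells were 3.13% of wild type and 11.8% of mutant cells, and the part of free RNA in the Il2ra of other stages was not tested. B and antigen-presenting cells had an Il2ra UMI in 1 of 15 wild type and 8 of 64 mutant cells, and cycling cells in 18 of 591 and 29 of 297, 3.05% and 9.76%. The shares of cycling cells were no higher than those of B and antigen-presenting cells, of whose 34 mutant UMIs 13 came from 1 cell.

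Socs3 in DP cells had 13.1 CPM on the wild type and 45.9 CPM on the mutant side. The log2 ratio was 1.81 (0.79 to 2.97), at percentile 99.3. Of DP cells, 9 of 289 and 41 of 460 had a Socs3 UMI, 3.11% (1.43 to 5.83) and 8.91% (6.47 to 11.9), and at 1500 UMIs per cell the shares were 2.77% (1.2 to 5.38) and 7.18% (4.86 to 10.1). B and antigen-presenting cells had one in 0 of 15 and 5 of 64 cells, 7.81% in mutant, which lies within the interval of the mutant DP share. They were deeper than DP cells, with medians of 4408 and 2676 UMIs against 2150 and 1834, and are no clean control. At 1500 UMIs per cell 0 of 15 and 2 of 62 had a Socs3 UMI. The mutant share was then 3.23% (0.393 to 11.2), with an interval that overlapped that of mutant DP cells. In DP cells without a post-selection or SP marker UMI there were 2 and 9 Socs3 UMIs, a log2 ratio of 2.18 (-0.09 to 5.43), and in the other DP cells 8 and 34, 1.68 (0.54 to 3). In cycling cells 2 wild type and 25 mutant UMIs gave 4.68 (2.68 to 7.81), at levels too low to be called. In SP cells the ratio was -0.36 (-1.29 to 0.60). Summed over 13 genes, interferon-inducible RNA was higher in mutant than in wild type at each of the 5 stages. Wild type and mutant sums were 520 and 833 CPM at the DN stage, 164 and 422 for cycling, 321 and 629 for DP. For post-selection they were 431 and 705, and for SP 1308 and 1414. From DP to SP these sums rose in both libraries. Socs3 fell from 45.9 to 19.3 CPM in mutant. In wild type it went from 13.1 to 24.8 CPM, with a ratio interval that included 0. Of 7 interferon-inducible genes measured in DP cells 5 were called higher in mutant, as were 2.94% of all measured genes. Usp18, an interferon-induced brake on interferon signalling, was at a log2 ratio of 3.10 (1.07 to 6.23), from 2 and 21 UMIs. The part of the interferon genes, and of the clusters in which DP cells of the libraries lay apart, was not tested.

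Socs1 was lower in mutant in cycling, DP and SP cells. Its log2 ratio was -0.88 (-1.20 to -0.58) in cycling cells, at percentile 0.776 of measured genes and within 2-fold, -0.36 (-0.66 to -0.07) in DP and -0.48 (-0.95 to -0.01) in SP cells. Post-selection cells had -0.10 (-0.57 to 0.38), and DN cells went the other way at 0.44 (-0.37 to 1.35). Within cycling cells of high coreceptor counts it was -0.68 (-1.10 to -0.28), and in those of low counts -0.33 (-0.86 to 0.20), and cells of high counts made up 438 of the 591 wild type cells but 129 of the 297 mutant cells. The part of that share in the ratio of the whole stage was not tested. Il7r was at -0.42 (-0.75 to -0.09) in SP, -0.01 (-0.46 to 0.46) in post-selection, -0.16 (-1.53 to 1.24) in DP, 0.99 (0.17 to 1.80) in cycling and 0.96 (0.05 to 2.02) in DN cells. The SP ratio of Il7r was -0.07 with clusters in place of the marker rule. Il2rg lay between -0.01 and 0.45 in the 5 stages.

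Mature cells with CD8 RNA and those with CD4 RNA differed in Il7r in the mutant library. SP cells with at least 2 UMIs of Cd8a and Cd8b1 and none of Cd4, Zbtb7b or Cd40lg numbered 66 in wild type and 101 in mutant. SP cells with any UMI of Cd4, Zbtb7b or Cd40lg and none of Cd8a and Cd8b1 numbered 36 and 106. Il7r was at 123 (83.3 to 176) and 159 (92.4 to 254) CPM in the CD8 and CD4 cells of wild type, a log2 ratio of -0.36 (-1.27 to 0.59), and at 72.9 (48.5 to 105) and 186 (144 to 237) in mutant, -1.35 (-2.04 to -0.69). Socs1 went the other way in mutant, at 78.1 and 39.4 CPM, 0.99 (0.03 to 2.02). In wild type Socs1 had 0.73 (-0.43 to 2.06). The wild type intervals are too wide to say whether the libraries differ.

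Among lists of related genes, those known to act on Il7r held members that were both higher and lower in DP than in SP cells. All 10 were measured in both libraries, with 2 higher and 2 lower in each. Of all measured genes 16.7% were higher and 5.81% lower in wild type, and 18.4% and 5.96% in mutant. Gfi1, a repressor of Il7r, was at 73.3 CPM in DP and 13.1 in SP cells of wild type, a log2 ratio of 2.48 (1.45 to 3.68), and at 115 and 16.4 in mutant, 2.81 (2.15 to 3.53). Runx3 was the lowest of the list, at -2.35 (-3.20 to -1.58) and -2.10 (-2.90 to -1.37). The median of the list with 5 CPM added was 0.74 in wild type and 0.39 in mutant, beside medians of all genes of 0.38 and 0.49.

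STAT5-linked survival and growth genes were likewise divided. Of 9 genes 8 were measured, with 3 higher and 2 lower in wild type DP against SP cells and 2 higher and 4 lower in mutant, and medians of -0.11 and -0.73. The shares of all measured genes were 16.7% higher and 5.81% lower in wild type, and 18.4% and 5.96% in mutant. Bcl2l1, the survival factor of DP cells, was at 175 and 23.4 CPM in wild type, 2.91 (2.16 to 3.76), and at 266 and 25.7 in mutant, 3.37 (2.86 to 3.92). Ccnd2, a G1 cyclin, was at the other end, at -3.99 (-4.59 to -3.44) and -3.71 (-4.15 to -3.30).

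For the lists that follow, the shares of all measured genes in DP against SP cells were 16.7% higher and 5.81% lower in wild type. In mutant they were 18.4% and 5.96%. Of the JAK kinases and STAT factors 7 of 11 were measured, with 0 called higher in wild type and 1 in mutant, and medians of -0.35 and -0.09. In each library 1 was called lower. Stat5b was the highest in wild type at 1.00 (0.37 to 1.66), and Stat5a in mutant at 1.37 (0.81 to 1.94). Other SOCS genes and negative regulators had 12 and 11 of 16 genes measured, 2 and 1 higher and 0 lower, with medians of 0.66 in both. Cbl, a ubiquitin ligase of receptors and kinases, was their highest at 1.51 (1.08 to 1.95) and 1.86 (1.53 to 2.19), and Ptpn2, a phosphatase, their lowest at -0.74 (-1.83 to 0.30) and -0.45 (-1.18 to 0.26). Other cytokine receptor chains had 11 and 12 of 20 measured, with 2 higher and 2 lower in wild type and 3 higher and 4 lower in mutant, and medians of 0.02 and -0.43. Ifngr1, the interferon gamma receptor chain, was highest at 2.66 (2.21 to 3.13) and 2.57 (2.30 to 2.85). Il6ra, the IL-6 receptor chain, was lowest at -3.93 (-6.26 to -2.28) and -4.40 (-6.71 to -2.81), so that Il7r was not the only receptor chain with a low level in DP cells. Of 8 ligand genes, 1 was measured in wild type, Il2 at 0.30 with 5 CPM added, and none in mutant.

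Over 11 profiles, the genes most like each member were found by Pearson's r of log2(CPM + 5) among 4442 genes. The profiles were those of the 5 stages in each library and that of the 64 mutant B and antigen-presenting cells. Profiles of 1 library share depth and cells, so r is a description. The nearest to Il7r were Ccnd2 (0.96), Rps6ka1 (0.95) and Chd3 (0.95). Il2ra was followed by Plekha7, Hes1 and Mpzl2, each at 0.95, of which Hes1 was a marker used to set the DN stage. Il2rg was nearest to Rinl (0.98), Sepw1 and Malat1 (0.97 each), and Il2rb to Gm4955 (0.98), Rapgef6 (0.94) and Fam102a (0.93). Il4ra lay with Itpkb (0.97) and Rnf145 (0.96), and Socs1 with Trp53inp1 (0.93), Commd4 (0.91) and Cep97 (0.91). Socs3 had the lowest values, at 0.88 with Dpp4 and with Bst2, an interferon-inducible gene, and 0.84 with Trmt10a. Cish had too few UMIs to enter.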

How the data were processed

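Single-cell RNA was measured with 10x 3′ v2 reagents, per the labels' protocols. Each deposited table holds unnormalized UMI counts by barcode and gene symbol. The submitters' processing notes name Cell Ranger and build mm10; versions, the strand setting and the step that set the lowest barcode totals (1781 UMIs in wild type, 1416 in mutant) are not given in the sources used here. The members, marker lists and pathway lists were chosen with earlier results of these data known, and the limits of the stage rule were set after marker distributions were seen.

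The files held 1346 and 1737 barcodes with medians of 3323.5 and 2596 UMIs. Barcodes with at least 400 genes and at most 10% mitochondrial UMIs were kept. Scrublet (Scanpy 1.11.5, expected rate 4%) called 5 doublets, 0.163% of the barcodes that passed this filter, so uncalled doublets remain. In all, 3067 of 3083 cells were kept. In order, a cell was B or antigen-presenting (at least 5 marker UMIs), innate-like (at least 3), DN (at least 10 DN marker UMIs and under 10 coreceptor UMIs per 10000), cycling (at least 20 per 10000), or the stage with the highest marker rate among DP, post-selection and SP, each divided by its 95th percentile. Of the listed markers Gzma, Nkg7, Cst3, Cd79b, Apoe and, for agonist cells, Ikzf2 were not used to assign cells.

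UMIs were summed per library and stage with Python 3.11.15, NumPy 2.4.6, SciPy 1.17.1 and pandas 2.3.3, and plotted with matplotlib 3.10.9. Thinning to 1500 UMIs left out 0 wild type and 97 mutant cells. Levels have exact Poisson, ratios exact conditional and shares exact Clopper-Pearson intervals. A level of 0 was set to 3 UMIs for a fold. Named are all members in stages of at least 40 cells, the highest and lowest measured gene of each list per contrast printed, and the 3 most alike genes; a few results this rule would name are not reported here. The ratio script was tested on simulated data. GENCODE vM21 overlaps Il2ra and Il2rg with a gene on the same strand and Il4ra and Cish with one on the opposite strand, so their counts may include or lose such reads. The alternatives are given at the end.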

Additional observations from a re-analysis of the deposited data

Results flagged for a closer look

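The log2 ratio of Socs3 in DP over SP cells had opposite signs in the libraries. It was -0.92 (-2.21 to 0.29) in wild type, from 10 and 17 UMIs and within 2-fold. In mutant it was 1.25 (0.52 to 2.00), from 43 and 27 UMIs. This difference between the libraries was not tested, since each genotype has 1 library, and the wild type interval included 0.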

How the results depend on the processing

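No paired analysis was possible because each genotype has 1 library. A total of 40 ratios of members between stages (DP over SP, DP over DN, cycling over DP) and 35 of mutant over wild type were recomputed under 11 settings. Between stages 411 of 432 values stayed within the interval of the reported ratio, and 17, from 8 ratios, had the opposite sign; 1 of these ratios, Il4ra in mutant DP over SP cells, had an interval that excluded 0. Values of Il7r in DP cells, which rest on 10 and 11 UMIs, lay outside: with cells thinned to 1500 UMIs its log2 ratio was -4.76 for DP over SP cells in mutant, and -3.52 and -4.68 for DP over DN cells in wild type and mutant, and with Leiden clusters as stages it was -5.47 for DP over SP and -5.20 for DP over DN cells in mutant. Between genotypes 363 of 377 values stayed within the interval, and 41, from 13 ratios whose intervals all included 0, had the opposite sign. Il2ra was the least stable: with markers counted on thinned cells its log2 ratio was 2.49 in post-selection cells, reported at -0.96, and 2.08 in SP cells, reported at -0.24. Il4ra in DP cells went from 0.60 to -0.25 with the same lower limit of UMIs in both libraries. The number of pairs of a member and a stage called higher in mutant was 3, and 6 with markers counted on thinned cells, 6 without the cell that held most UMIs of the gene, and 5 without cells near a limit of the stage rule, an alternative chosen after seeing the data. Il2ra in DN cells stayed past 2-fold in 8 of 11 settings, Il2ra in cycling cells in 11 and Socs3 in DP cells in 10.

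The share of all genes past 2-fold in either direction depended on the CPM added. With 20 CPM added it was 11.2% and 12.8% for DP against SP cells in wild type and mutant, 13% and 9.07% for DP against DN cells, and for mutant against wild type 0.942% over all cells, 4.43% in DN, 0.979% in cycling, 1.03% in DP, 0.578% in post-selection and 0.272% in SP cells. With 1 CPM added the genotype values were 6.36% in DP, 5.18% in post-selection and 2.59% in SP cells, and with a level of at least 50 CPM required 1.84% in post-selection and 0.585% in SP cells. Depth limits Il7r and Socs3 in DP cells, Il2rb in DN cells and Cish in all stages.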

Other observations

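Cells outside the 5 stages enter no ratio between the stages, but the mutant B and antigen-presenting cells form a profile in the search for alike genes. Innate-like cells, with 24 cells in wild type and 33 in mutant, had Il7r at 219 CPM (147 to 315) and 195 (135 to 272) and Il2rb at 114 (63.5 to 187) and 120 (74.5 to 184). Their Il2rb levels lay above those of SP cells in both libraries, with intervals that did not overlap. Il2rg was at 288 (203 to 395) and 298 (223 to 391) CPM there, and Socs1 at 83.2 (41.6 to 149) and 97.4 (56.8 to 156). Il2ra was found in 1 UMI of 24 wild type and 16 UMIs of 33 mutant innate-like cells, and Socs3 in 0 and 7 UMIs. Socs2, a SOCS gene outside the members, was found in DN cells with 6 UMIs (wild type) and 36 UMIs (mutant) and in the DP cells of each library with 1 UMI, a mutant log2 ratio of DP over DN cells of -5.48 (-10.8 to -2.91).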
